A study of Mus musculus with 46 samples.

Results

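The interferon-induced genes described here are a list of 39 mouse genes whose transcription is known to be switched on by interferons. The list was given by symbol, and all 39 symbols were found among the 45801 gene symbols of the 5 bulk count tables. In the single-cell matrices 37 of the 39 had a probe, and Mx1 and Mx2 had none. The members fall into 8 groups by role, namely 5 IFIT proteins, 2 genes of the ISG15 system, 6 genes of the OAS family, 2 Mx GTPases, 10 other effectors, 4 sensors of foreign nucleic acid, 4 transcription factors and 6 GBP and IRG GTPases.

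The study set metformin, a biguanide used against type 2 diabetes, and imeglimin, a tetrahydrotriazine derived from it, against untreated controls in the intestine of male C57BL/6J mice. In the acute experiment, colon was taken 6 h after a single oral dose of 600 mg/kg metformin, of 600 mg/kg imeglimin, or from controls. In the chronic experiment, mice drank water with 3 mg/mL metformin, water with 3 mg/mL imeglimin, or control water for 4 weeks, and the colon and 3 segments of the small intestine (proximal, middle and distal) were taken. Each of these 15 groups held 3 libraries of polyadenylated RNA from whole tissue, 45 in all, and each of the 5 tables covered 9 libraries of metformin, imeglimin and control tissue. Colon after 12 weeks of drinking water was measured cell by cell with a probe-based assay on fixed cells, in matrices named Met, Ime and CT. The labels used here state no age of the mice. C57BL/6 mice carry defective Mx alleles, so that in this strain Mx RNA does not stand for a working Mx protein.

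Interferons are secreted proteins that warn cells of infection. Type I and type III interferons act through the kinases Jak1 and Tyk2 to activate a complex that holds Stat2 and Irf9 and binds the interferon-stimulated response element in the promoters of its targets. Type II interferon, the product of Ifng, acts through Jak1 and Jak2 on another element and induces Irf1 and the GBP and IRG GTPases. In the intestine type III interferon acts mainly on epithelial cells, and the commensal flora keeps a low tonic level of interferon-induced transcripts in the epithelium.

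The promoters of 6 members are printed to show the letters that these factors read, 1 each from the ISG15 system, the OAS family, the GBP and IRG GTPases and the transcription factors, and 2 from the IFIT genes, because Ifit1 and Ifit1bl1 were called in different experiments. Each is the 130 bases before a start of transcription in the RefSeq promoter table of build GRCm38.p6. It is written 5′ to 3′ on the strand of the gene. Ifit1bl1 and Irf1 have 2 starts each there, and the more upstream one was used. The capitals mark a pair of GAAA half-sites with any 2 bases between them, or on the other strand a pair of TTTC half-sites spaced alike, the core letters of the interferon-stimulated response element, and TTCNNNGAA, the letters of the element through which type II interferon acts, which read the same on both strands. The windows lie at chr4:156200819-156200948 (minus strand, Isg15), chr19:34640759-34640888 (plus strand, Ifit1), chr19:34601969-34602098 (minus strand, Ifit1bl1), chr5:120907526-120907655 (minus strand, Oas1a), chr3:142620533-142620662 (plus strand, Gbp2) and chr11:53769884-53770013 (plus strand, Irf1).
Isg15: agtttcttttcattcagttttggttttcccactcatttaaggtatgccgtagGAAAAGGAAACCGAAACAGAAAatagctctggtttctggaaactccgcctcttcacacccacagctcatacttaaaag
Ifit1: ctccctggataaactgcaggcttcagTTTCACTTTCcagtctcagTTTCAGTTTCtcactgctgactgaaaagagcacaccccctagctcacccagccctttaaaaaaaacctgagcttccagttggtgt
Ifit1bl1: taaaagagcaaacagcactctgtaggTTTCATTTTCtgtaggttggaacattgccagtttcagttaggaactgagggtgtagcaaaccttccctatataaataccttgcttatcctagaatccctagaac
Oas1a: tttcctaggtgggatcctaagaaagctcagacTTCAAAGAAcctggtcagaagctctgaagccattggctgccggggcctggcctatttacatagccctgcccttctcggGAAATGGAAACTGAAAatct
Gbp2: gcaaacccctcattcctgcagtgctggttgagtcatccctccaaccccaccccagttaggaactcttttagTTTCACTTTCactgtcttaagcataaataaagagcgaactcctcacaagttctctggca
Irf1: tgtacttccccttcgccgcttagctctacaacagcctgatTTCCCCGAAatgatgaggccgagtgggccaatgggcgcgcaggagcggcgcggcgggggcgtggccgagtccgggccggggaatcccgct

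In these windows Isg15 held 3 overlapping matches to the spaced GAAA pair, Ifit1 and Oas1a held 2 each, and Ifit1bl1 and Gbp2 held 1 each. Irf1 held no match to the GAAA pair and 1 to TTCNNNGAA. The promoter at the other start of Irf1 held neither, and that at the other start of Ifit1bl1 held 1 GAAA pair, 23 bases before the start. Over the whole promoters of the table, from 250 bases before to 50 bases after the start, 30 of the 39 members were present, and Parp14, Rtp4, Mx2, Dhx58, Mx1, Oas2, Iigp1, Usp18 and Zbp1 were not. The GAAA pair was found for 19 of the 30 members (63.3%), against 1079 of 27025 genes in the table (3.99%). By role it was found in 5 of the 5 GBP and IRG genes present, 4 of 5 IFIT genes, 3 of 5 OAS genes, 3 of 8 other effectors, 2 of 2 sensors and 1 of 4 transcription factors. TTCNNNGAA was found for 8 of the 30 members (26.7%), against 2582 of 27025 genes (9.55%). A match of letters is a description of the window and not a measured binding site.

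Levels below are CPM (each library's counts scaled to a common total) after TMM scaling, computed within each table from the deposited gene counts, and the tables were scaled separately. The libraries held 31606797 to 47324301 counts. A gene was called higher or lower where edgeR's quasi-likelihood test gave an adjusted p under 0.05 (Benjamini-Hochberg over all genes of the table that were tested), and every adjusted p below comes from that test. Nothing in the labels says that the 3 libraries of a group came from separate animals, so the p-values measure the spread between these libraries. In whole tissue, fewer cells of a type and less RNA per cell cannot be told apart. Several libraries stood apart in their tissue makeup. The summed level of 7 smooth muscle markers was 1538 CPM in acute metformin library 2, against 3994 to 6516 CPM in the other acute colons. Likewise 6 pancreatic acinar markers summed to 14505 CPM in chronic colon control library 3, against 1.10 CPM or less in the other chronic colons. Sums of 7 B cell markers ranged from 9.19 to 1106 CPM in the distal small intestine. Together, 8 markers of small intestinal enterocytes summed to 204 to 773 CPM in the libraries labelled colon and 5591 to 56222 CPM in those labelled small intestine.

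Controls expressed nearly all members. In control tissue between 25 and 30 of the 39 members reached a mean of 10 CPM in each of the 5 tables, and Mx2 was at 0.990 to 2.08 CPM in the control means of the 5 tables. Isg20, a 3′ to 5′ exonuclease that degrades RNA, averaged 19.9 ± 0.31 CPM in acute colon controls and 14.4 ± 1.91 CPM in chronic colon controls (SD, n = 3 each). The same gene averaged 2.15 ± 0.41, 1.94 ± 0.25 and 3.04 ± 0.30 CPM in proximal, middle and distal small intestine controls. Cmpk2, a nucleotide kinase of the mitochondria, was the other way round, at 13.6 ± 1.14 and 11.1 ± 4.40 CPM in acute and chronic colon controls and at 52.0 ± 12.1, 61.8 ± 6.00 and 48.4 ± 17.1 CPM along the small intestine. Irf7, the transcription factor that amplifies the type I response, averaged 176 ± 21.4, 121 ± 12.7, 99.8 ± 10.3, 87.4 ± 34.9 and 66.5 ± 10.1 CPM in acute colon controls, then in the controls of the proximal, middle and distal segments, and last in those of chronic colon. The interferon genes themselves were near 0. Ifnb1, Ifnl2 and Ifnl3 had 0 counts in all 45 libraries, which allows up to 0.0949 CPM in the shallowest library, and Ifng reached at most 0.756 CPM, in 1 control library of the distal small intestine.

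**Figure D1:**
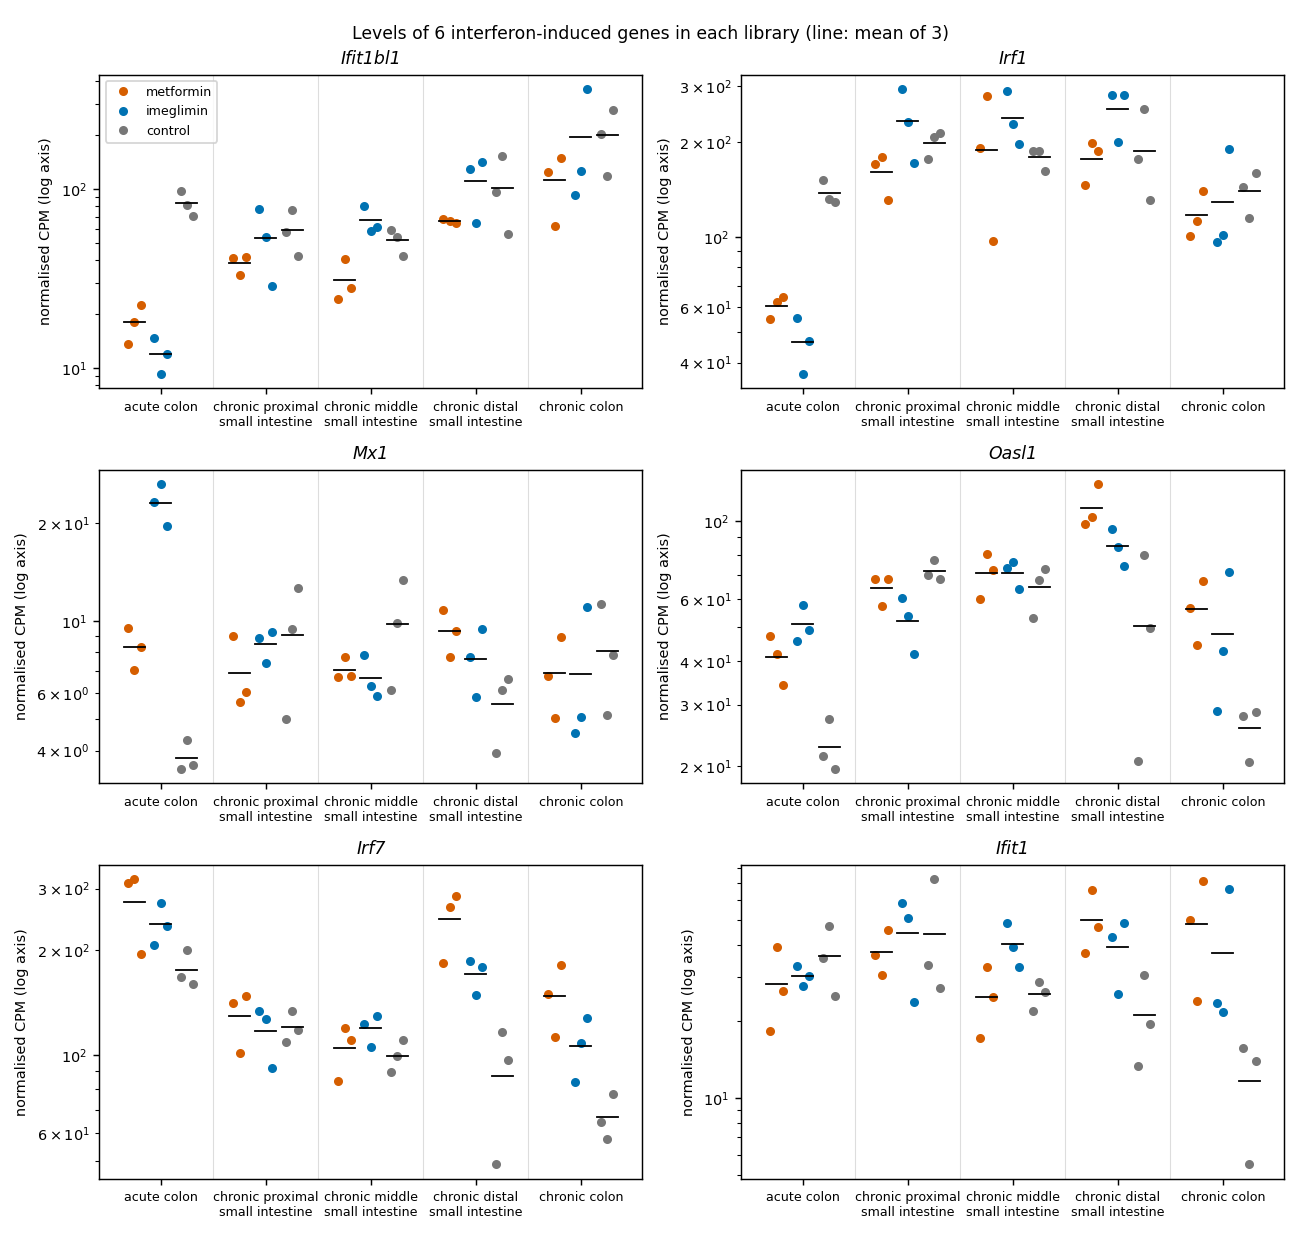
Level of 6 members in each bulk library (CPM, log axis) in the 5 tables, with metformin, imeglimin and control from left to right, where points are libraries and lines are means of 3. In acute colon Ifit1bl1 and Irf1 are lower and Mx1 is higher in all 6 drug libraries than in every control, and Irf7 is higher with metformin in chronic colon.

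In the colon 6 h after a single dose of metformin, most interferon-induced genes that changed fell. Of the 39 members 9 fell and 3 rose, against 8.37% of all 18294 genes called lower and 11.3% called higher. The IFIT genes were the group with the most calls, with 4 of 5 lower. The risers were Mx1, Oasl1 and Irf7. The median log2 fold change of the members was -0.36, against -0.04 for all genes.

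The largest fall was in Ifit1bl1, a member of the IFIT family of antiviral proteins with tetratricopeptide repeats. Ifit1bl1 had 13.6, 18.1 and 22.5 CPM in metformin colons, 14.7, 9.26 and 12.0 CPM in imeglimin colons, and 98.0, 82.0 and 70.7 CPM in control colons. All 6 treated colons lay below all 3 controls. The log2 fold change was -2.21 ± 0.21 with metformin (SE, adjusted p = 0.000122) and -2.80 ± 0.21 with imeglimin (adjusted p = 1.75e-05). Irf1, a transcription factor strongly induced by type II interferon, had 54.8, 62.4 and 64.6 CPM in metformin colons, 55.5, 36.8 and 46.8 CPM in imeglimin colons, and 152, 132 and 129 CPM in controls. Its groups did not overlap either, and it fell by 1.18 ± 0.14 with metformin (adjusted p = 0.000366) and by 1.57 ± 0.14 with imeglimin (adjusted p = 4.47e-05) on the log2 scale. Cmpk2 had 6.81, 6.12 and 6.04 CPM in metformin colons, 5.50, 6.02 and 4.20 CPM in imeglimin colons, and 13.9, 14.5 and 12.3 CPM in controls. Parp14, an enzyme that adds single ADP-ribose units to proteins, had 36.9, 47.7 and 44.4 CPM in metformin colons, 44.1, 35.4 and 38.3 CPM in imeglimin colons, and 83.3, 90.4 and 76.9 CPM in controls. Both fell without overlap, Cmpk2 by 1.10 ± 0.16 with metformin and by 1.37 ± 0.16 with imeglimin, and Parp14 by 0.96 ± 0.12 and by 1.09 ± 0.12, with adjusted p between 0.000134 and 0.000922.

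Mx1, which encodes a dynamin-like GTPase, went against these members. It had 9.53, 7.06 and 8.34 CPM in metformin colons, 23.1, 26.3 and 19.6 CPM in imeglimin colons, and 3.51, 4.30 and 3.60 CPM in controls. The 3 groups did not overlap, with imeglimin highest. Its log2 fold change was 1.13 ± 0.16 with metformin (adjusted p = 0.00104) and 2.60 ± 0.17 with imeglimin (adjusted p = 6.24e-06). Oasl1, an OAS-like protein that in mice represses the translation of Irf7, had 47.2, 41.7 and 34.1 CPM in metformin colons, 45.4, 57.8 and 49.1 CPM in imeglimin colons, and 21.4, 27.2 and 19.6 CPM in controls. It rose by 0.85 ± 0.15 with metformin (adjusted p = 0.00361) and by 1.16 ± 0.15 with imeglimin (adjusted p = 0.000378). The other 5 OAS genes were not called with metformin. Irf7 had 312, 319 and 196 CPM in metformin colons, 207, 273 and 235 CPM in imeglimin colons, and 167, 200 and 160 CPM in controls. One metformin library lay within the control range, and Irf7 was called with metformin (0.65 ± 0.18, adjusted p = 0.0267) and not with imeglimin (0.44 ± 0.18, adjusted p = 0.0805).

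Of the other IFIT genes, whose products bind foreign RNA, Ifit2, Ifit3 and Ifit3b also fell and Ifit1 was not called. Ifit2 had 6.08, 5.17 and 6.85 CPM in metformin colons, 6.55, 3.36 and 4.33 CPM in imeglimin colons, and 10.5, 12.7 and 7.88 CPM in controls. Ifit3 had 8.68, 7.86 and 7.15 CPM in metformin colons, 6.95, 6.88 and 7.20 CPM in imeglimin colons, and 11.3, 18.02 and 10.0 CPM in controls. The drug libraries of both lay below every control, and the metformin calls were near the threshold for Ifit2 (-0.78 ± 0.25, adjusted p = 0.0484) and Ifit3 (-0.73 ± 0.20, adjusted p = 0.0261). Ifit3 and Ifit3b are near-identical copies between which counting may split reads. Ifit1 itself, the fifth IFIT member, was at 18.3, 39.3 and 26.4 CPM in metformin colons, 33.1, 27.6 and 30.3 CPM in imeglimin colons, and 35.6, 47.3 and 25.3 CPM in controls, where the groups overlap and no call was made. Isg15, a ubiquitin-like protein that is joined to other proteins, was at 6.96, 7.77 and 6.16 CPM in metformin colons, 5.40, 8.93 and 6.62 CPM in imeglimin colons, and 4.93, 10.4 and 3.17 CPM in controls. Its controls spanned both drug groups, and neither contrast was called (adjusted p = 0.754 with metformin and 0.733 with imeglimin).

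Imeglimin gave the larger set of calls in the same experiment. With imeglimin 21 members fell and 3 rose, against 15.1% of all genes called lower and 18.1% called higher, and the member median was -0.58 against -0.03 for all genes. All 4 sensors of foreign nucleic acid fell, as did 4 of 5 IFIT genes, 4 of 6 OAS genes, 4 of 10 other effectors, 3 of 6 GBP and IRG GTPases and 2 of 4 transcription factors. Mx1, Oasl1 and Isg20 rose.

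Among the sensors, Ddx58, which encodes RIG-I, had 17.6, 20.9 and 19.1 CPM in metformin colons, 15.7, 14.4 and 14.3 CPM in imeglimin colons, and 25.4, 36.3 and 25.5 CPM in controls. Ifih1, which encodes MDA5, a sensor of long double-stranded RNA, had 47.5, 70.7 and 58.0 CPM in metformin colons, 52.9, 51.5 and 53.9 CPM in imeglimin colons, and 80.6, 82.3 and 69.0 CPM in controls. Ddx58 fell with both drugs, by 0.60 ± 0.14 with metformin (adjusted p = 0.0142) and by 0.97 ± 0.14 with imeglimin (adjusted p = 0.000647). Ifih1 fell with imeglimin by 0.55 ± 0.13 (adjusted p = 0.00879), and 1 metformin library reached above the lowest control. Stat2, the subunit that carries the activation domain of the interferon-stimulated complex, had 35.99, 48.2 and 38.2 CPM in metformin colons, 29.4, 30.3 and 28.1 CPM in imeglimin colons, and 45.5, 53.5 and 38.5 CPM in controls. It fell with imeglimin by 0.65 ± 0.14 (adjusted p = 0.00472), without overlap. Irf9, its partner, was not called with either drug.

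Oasl2, an OAS-like protein, had 33.0, 50.5 and 39.9 CPM in metformin colons, 21.2, 29.7 and 23.6 CPM in imeglimin colons, and 39.2, 85.8 and 39.2 CPM in controls. It fell with imeglimin by 1.14 ± 0.29 (adjusted p = 0.0109). Iigp1, an IRG GTPase that attacks the vacuoles of intracellular parasites in mice, had 4.10, 3.75 and 3.89 CPM in metformin colons, 3.39, 2.08 and 2.04 CPM in imeglimin colons, and 5.82, 5.26 and 7.76 CPM in controls. It fell with imeglimin by 1.32 ± 0.23 (adjusted p = 0.0017) and was lower without overlap in the metformin colons too, where it was not called. Gbp7 fell with imeglimin by 0.66 ± 0.16 (adjusted p = 0.00948), and Irgm1 was the GBP or IRG member called with metformin (-0.40 ± 0.12, adjusted p = 0.0392). Gbp2, a GTPase that opens pathogen vacuoles, had 14.98, 7.83 and 16.1 CPM in metformin colons, 11.6, 10.1 and 9.76 CPM in imeglimin colons, and 10.1, 17.2 and 17.4 CPM in controls, and its groups overlapped. Isg20 had 23.8, 23.02 and 22.2 CPM in metformin colons, 20.8, 27.5 and 26.1 CPM in imeglimin colons, and 19.6, 20.2 and 19.8 CPM in controls. Its rise with imeglimin was small (0.32 ± 0.11, adjusted p = 0.0461).

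**Figure D2:**
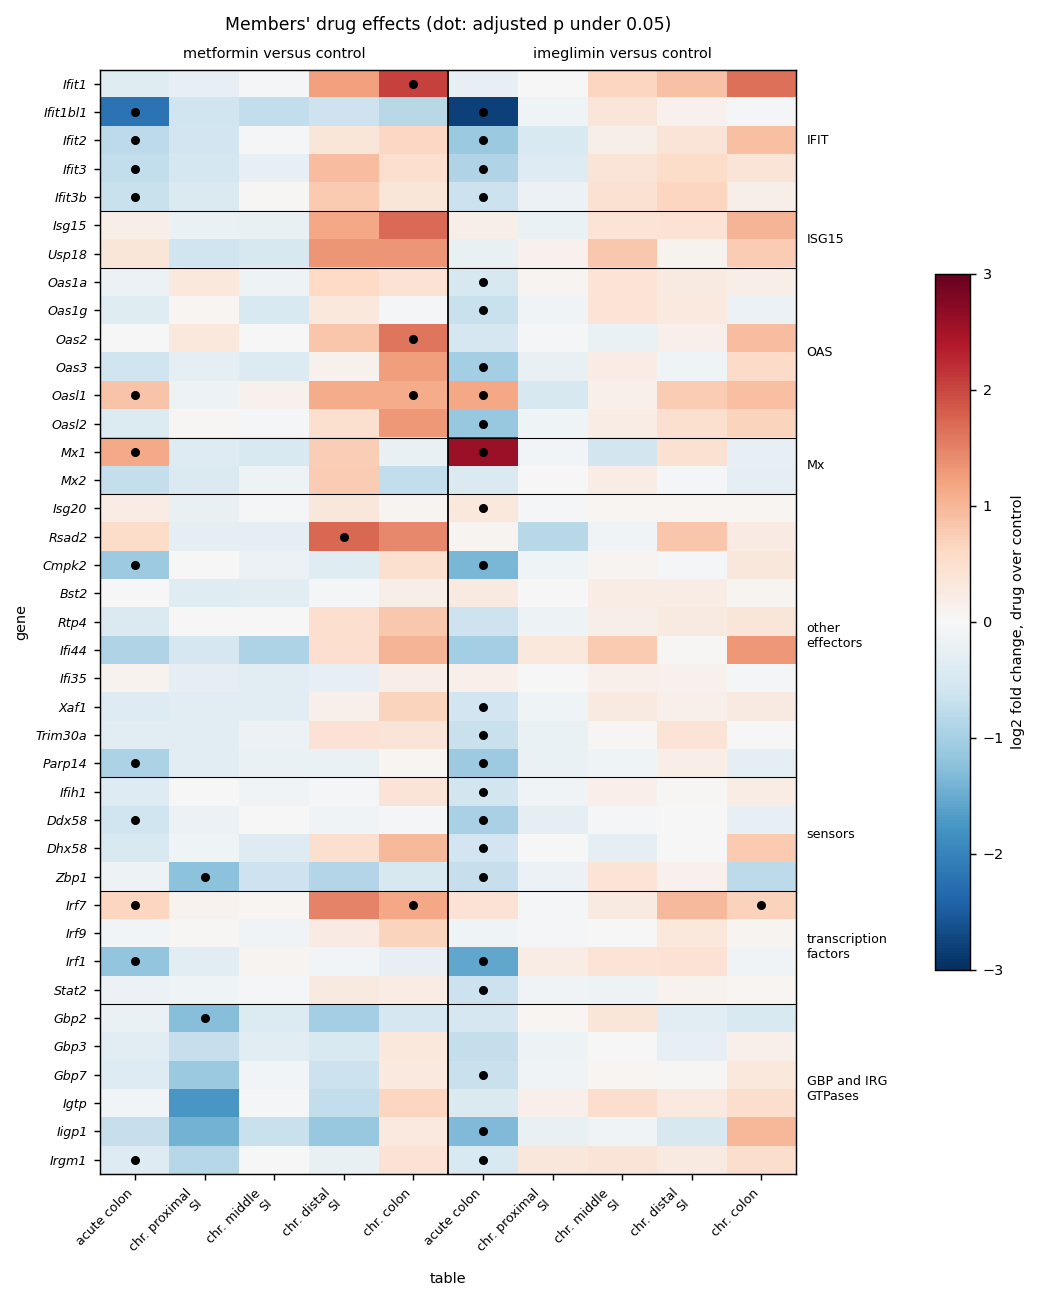
Log2 fold change of the 39 members (rows, by role group) in the 10 comparisons of a drug with its controls (columns), with a dot where the adjusted p was under 0.05. The 2 acute colon columns hold 36 of the dots, most of them on lower values, and both columns of the middle small intestine hold none.

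Leaving out 1 library at a time ended the metformin calls of Ifit2, Ifit3, Ifit3b, Irf7 and Irgm1 in 2 to 5 of 6 cases. Without control library 2, 5 members were called lower with metformin and 13 with imeglimin. With metformin the member median ran from -0.45, without control library 3, to -0.12, without control library 2. With imeglimin it ran from -0.67, without control library 1, to -0.39, without control library 2. The imeglimin calls of Ifit3b, Dhx58 and Isg20 were lost in 5 of 6 cases and those of Zbp1 and Xaf1 in 4. Those of Oas1a, Oas3 and Trim30a were lost in 3, that of Irgm1 in 2 and that of Oas1g in 1. The calls of Ifit1bl1, Irf1, Cmpk2, Parp14, Ddx58, Mx1 and Oasl1 held in every case with both drugs. With the replicate number as a block the metformin calls of Ifit2 (adjusted p = 0.0671), Ifit3b (0.063) and Irgm1 (0.055) were lost and Oas3 was gained (0.0347), and the imeglimin calls of Ifit3b (0.0504), Isg20 (0.0729) and Zbp1 (0.0607) were lost while Irf7 (0.0479), Oas2 (0.043), Rtp4 (0.0263) and Ifi44 (0.0374) were gained. Of 26 marker lists, those of lymphatic endothelium and of interstitial cells of Cajal were lower than every control with both drugs in acute colon. The summed level of its 5 genes was 61.4, 55.7 and 68.0 CPM in metformin colons, 54.4, 57.9 and 56.0 CPM in imeglimin colons, and 96.9, 96.5 and 77.8 CPM in controls, with 3 of 5 genes called lower with metformin and 5 of 5 with imeglimin. The 4 markers of interstitial cells of Cajal summed to 203, 152 and 195 CPM in metformin colons, 188, 134 and 134 CPM in imeglimin colons, and 228, 220 and 252 CPM in controls. Fibroblast marker sums were lower than every control with imeglimin (827, 697 and 726 CPM, against 894 to 1114 CPM in controls), as were tuft markers, while goblet markers were higher. With metformin small intestinal enterocyte markers were lower. The part of these cells in the member values was not tested. Macrophage and T cell marker sums overlapped between the groups.

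The drugs were given at the same dose and sampled at the same hour, and they were compared directly in each of the 5 tables. In acute colon 1 member differed, against 0.645% of all genes. Mx1 was higher with imeglimin than with metformin by 1.47 on the log2 scale (95% interval 1.12 to 1.81, adjusted p = 0.0097), and the adjusted p was 0.0537 without imeglimin library 2. For the members called with both drugs the interval of the difference was wide. It ran from -1.04 to -0.14 for Ifit1bl1 (adjusted p = 0.205), from -0.69 to -0.08 for Irf1 (adjusted p = 0.217) and from -0.03 to 0.64 for Oasl1 (adjusted p = 0.339), so neither a difference nor its absence was shown. The signs leaned one way, with 30 of 39 members lower with imeglimin than with metformin.

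In the colon after 4 weeks of drinking water the picture was another one, and every called member was higher. With metformin 4 members rose and 0 fell, against 11.6% of all 18665 genes called higher and 8.04% called lower. With the replicate number as a block 13 members rose and 0 fell with metformin, against 10.9% of all genes called higher, so that the members' share was close to that of all genes in the first fit and above it in the second. In the fit without the block, Ifit1, Oas2, Irf7 and Oasl1 were the 4. The member median was 0.44 against -0.05 for all genes, and 31 of 39 values were positive. With imeglimin 1 member rose, Irf7, against 7.97% of all genes called higher, and the median was 0.24. With the block 3 rose with imeglimin, against 6.81% of all genes.

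Irf7 had 150, 113 and 181 CPM in metformin colons, 83.7, 108 and 128 CPM in imeglimin colons, and 64.3, 57.7 and 77.5 CPM in controls. All treated libraries lay above all controls. It rose by 1.15 ± 0.20 with metformin (adjusted p = 0.00349) and by 0.68 ± 0.19 with imeglimin (adjusted p = 0.0461). The metformin call held without any 1 library, and the imeglimin call was lost in 5 of 6 such cases, with adjusted p up to 0.132.

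Ifit1, which binds RNA that lacks the methylated cap of host messengers, had 50.3, 23.98 and 71.1 CPM in metformin colons, 23.6, 21.9 and 66.4 CPM in imeglimin colons, and 15.7, 5.48 and 13.99 CPM in controls. It rose with metformin by 2.04 ± 0.54 (adjusted p = 0.0266), and its imeglimin libraries also lay above every control without a call (adjusted p = 0.071). Oas2, which makes the short 2′-5′ linked adenylates that activate RNase L, had 15.3, 13.01 and 27.1 CPM in metformin colons, 6.04, 7.38 and 21.6 CPM in imeglimin colons, and 7.01, 4.59 and 6.70 CPM in controls. Oasl1 had 56.4, 44.2 and 67.4 CPM in metformin colons, 28.7, 42.7 and 71.5 CPM in imeglimin colons, and 27.9, 20.5 and 28.6 CPM in controls. With metformin both rose without overlap, Oas2 by 1.60 ± 0.46 (adjusted p = 0.0374) and Oasl1 by 1.12 ± 0.29 (adjusted p = 0.024). Leaving out any control library or metformin library 3 left Irf7 as the sole call of the 4.

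Members just short of a call were many in this table. Isg15 had 21.8, 14.9 and 31.2 CPM in metformin colons, 7.48, 7.09 and 27.9 CPM in imeglimin colons, and 6.92, 3.98 and 9.96 CPM in controls. Every metformin library lay above every control (1.70 ± 0.54, adjusted p = 0.052), and 2 of 3 imeglimin libraries lay within the control range. In all, 12 members were higher without overlap with metformin and 0 lower, against 20.5% and 20.6% of all genes. The replicate block added Isg15 (adjusted p = 0.00341), Usp18 (0.0324), Oas1a (0.0107), Oas3 (0.049), Oasl2 (0.00424), Rsad2 (0.0111), Xaf1 (0.0295), Dhx58 (0.032) and Irf9 (0.0137) with metformin, and Ifit1 (0.0114) and Oasl1 (0.0426) with imeglimin. Usp18, the protease that removes Isg15 from proteins and blocks the type I receptor, thus joined Isg15 in that fit.

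Ifit1bl1 and Mx1, which had changed with both drugs after the single dose, did not pass the test here. Ifit1bl1 had 125, 62.5 and 149 CPM in metformin colons, 93.0, 127 and 363 CPM in imeglimin colons, and 202, 118 and 278 CPM in controls. Mx1 had 6.78, 5.05 and 8.90 CPM in metformin colons, 4.54, 5.06 and 11.03 CPM in imeglimin colons, and 11.3, 5.14 and 7.84 CPM in controls. Both overlapped between the groups, and the spread within the imeglimin and control groups was wide. Irf1, Cmpk2 and Parp14, which had fallen after the single dose, had values from -0.28 to 0.49 with adjusted p of 0.486 or more. Imeglimin library 3 was the highest of its group for Ifit1bl1 and Mx1. It was so again for Gbp2 and Iigp1, neither of which was called with both drugs after the single dose. Gbp2 had 33.0, 55.9 and 66.6 CPM in metformin colons, 16.7, 15.2 and 129 CPM in imeglimin colons, and 61.2, 23.6 and 136 CPM in controls. Iigp1 had 5.65, 16.2 and 26.02 CPM in metformin colons, 6.01, 3.45 and 68.1 CPM in imeglimin colons, and 11.02, 5.40 and 22.3 CPM in controls. The summed level of the 6 GBP and IRG members was 108, 88.3 and 464 CPM in the imeglimin colons.

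The imeglimin values of this table turned on library 3. Without it the member median with imeglimin turned to -0.32, the Irf7 call was lost and 1 member, Zbp1, was called lower. In the direct comparison of imeglimin with metformin 0 members were called by edgeR, against 0.611% of all genes. At an unadjusted p under 0.05 there were 3, against 18.9% of all genes, and DESeq2 called 0, against 6.93%. The 3 with the smallest p were Irf7 (-0.47, adjusted p = 0.225), Rsad2 (-1.21, adjusted p = 0.242) and Irf9 (-0.60, adjusted p = 0.249). Rsad2 had 43.5, 22.8 and 52.6 CPM in metformin colons, 10.2, 9.62 and 31.6 CPM in imeglimin colons, and 19.4, 6.90 and 17.2 CPM in controls. Irf9 had 60.1, 50.3 and 81.9 CPM in metformin colons, 31.9, 32.6 and 62.1 CPM in imeglimin colons, and 40.4, 34.6 and 45.5 CPM in controls. Without imeglimin library 3, 4 members were called lower with imeglimin than with metformin, namely Oas2, Oas3, Rsad2 and Irf9. Stromal markers moved with the metformin result, with 6 of 7 fibroblast and 5 of 7 smooth muscle markers called lower. Fibroblast marker sums were 651, 658 and 648 CPM in metformin colons and 1123, 924 and 862 CPM in controls. They were below every control with imeglimin too, with 3 of 7 genes called lower. Epithelial markers were split. Enteroendocrine marker sums were lower than every control with metformin, with 5 of 8 genes called lower, and tuft and Paneth marker sums overlapped the controls. Absorptive colonocyte markers summed to 5971, 5399 and 5760 CPM in metformin colons and 4835, 4957 and 5142 CPM in controls, with 2 of 8 genes called higher and 1 lower, and goblet markers were higher without overlap too, with 3 of 7 called. Small intestinal enterocyte markers summed to 358, 321 and 420 CPM in metformin colons, 409, 453 and 531 CPM in imeglimin colons, and 204, 241 and 212 CPM in controls. Plasmacytoid dendritic marker sums were above every control with metformin, with 2 of 6 genes called higher. With imeglimin they overlapped the controls, with 1 gene called higher. The part of these cells in the member values was not tested.

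**Figure D3:**
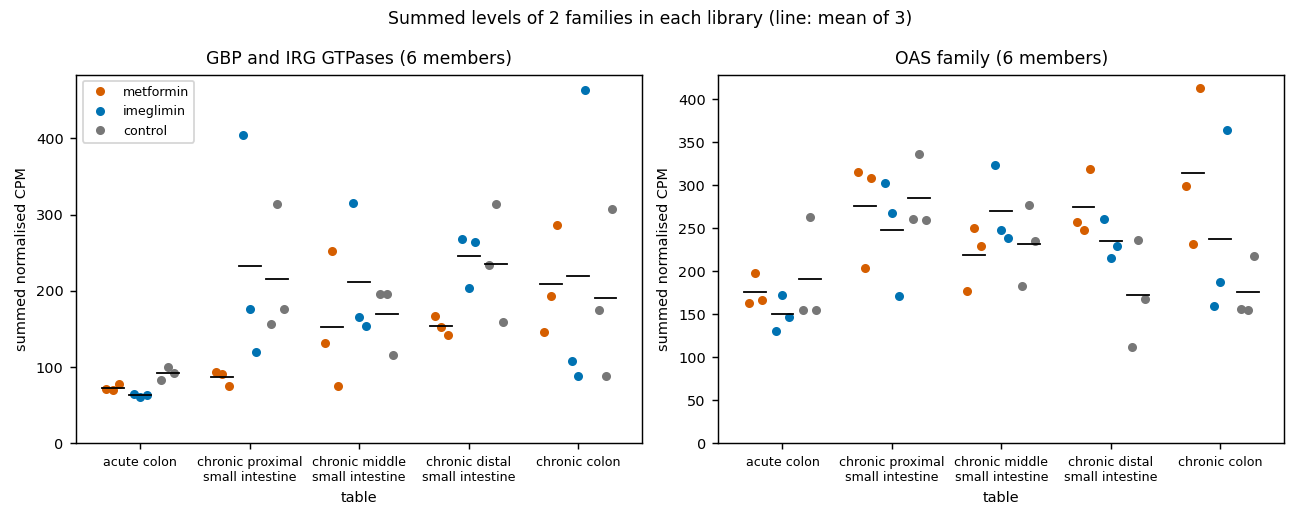
Summed CPM of the 6 GBP and IRG members and of the 6 OAS members in each library of the 5 tables, with metformin, imeglimin and control from left to right. The GBP and IRG sums of the proximal small intestine are lower with metformin than in every control, and imeglimin library 3 stands far above its group in chronic colon.

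The acute and chronic effects in colon were set against each other by testing the drug effect after the single dose minus the drug effect after 4 weeks. Route, dose and time differ together between the experiments and cannot be told apart. With metformin 2 of 39 members differed, against 6.22% of all 19369 genes, and with imeglimin 6 did, against 16.3%. With the replicate number as a block 14 members differed with each drug, against 4.59% of all genes with metformin and 13.5% with imeglimin. The members' share was thus close to that of all genes without the block and above it with the block.

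With imeglimin, Mx1 was higher in the acute contrast by 2.81 (95% interval 1.85 to 3.77, adjusted p = 0.000779), with effects of 2.58 acute and -0.23 chronic in that fit. Ifit1bl1 was lower in the acute contrast by 2.78 (interval -4.10 to -1.47, adjusted p = 0.00626), with effects of -2.81 acute and -0.03 chronic. Irf1 was lower by 1.48 (interval -2.15 to -0.82, adjusted p = 0.00453). Cmpk2 (-1.74, adjusted p = 0.0373), Dhx58 (-1.40, adjusted p = 0.0235) and Ifih1 (-0.80, adjusted p = 0.0446) were the other 3. Dhx58 encodes LGP2, a helicase that tunes the signalling of RIG-I and MDA5.

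With metformin, Ifit1 (-2.44, adjusted p = 0.036) and Dhx58 (-1.47, adjusted p = 0.0354) differed, with Ifit1 effects of -0.37 acute and 2.06 chronic. Dhx58 had 6.14, 8.21 and 5.17 CPM in acute metformin colons and 7.93, 10.5 and 8.39 CPM in acute controls. In chronic colon it had 15.8, 13.1 and 22.6 CPM with metformin and 10.5, 7.42 and 8.06 CPM in controls. It was thus lower in 2 of 3 acute metformin libraries than in every control and higher in 3 of 3 chronic ones. Replicate 1, 2 or 3 was left out of every group in turn. The metformin call of Dhx58 was lost in all 3 cases and that of Ifit1 in 2, with adjusted p up to 0.223 and 0.193. Of the imeglimin calls that of Mx1 held in every case, those of Ifit1bl1 and Irf1 were lost in 1, that of Dhx58 in 2, and those of Cmpk2 and Ifih1 in all 3.

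**Figure D4:**
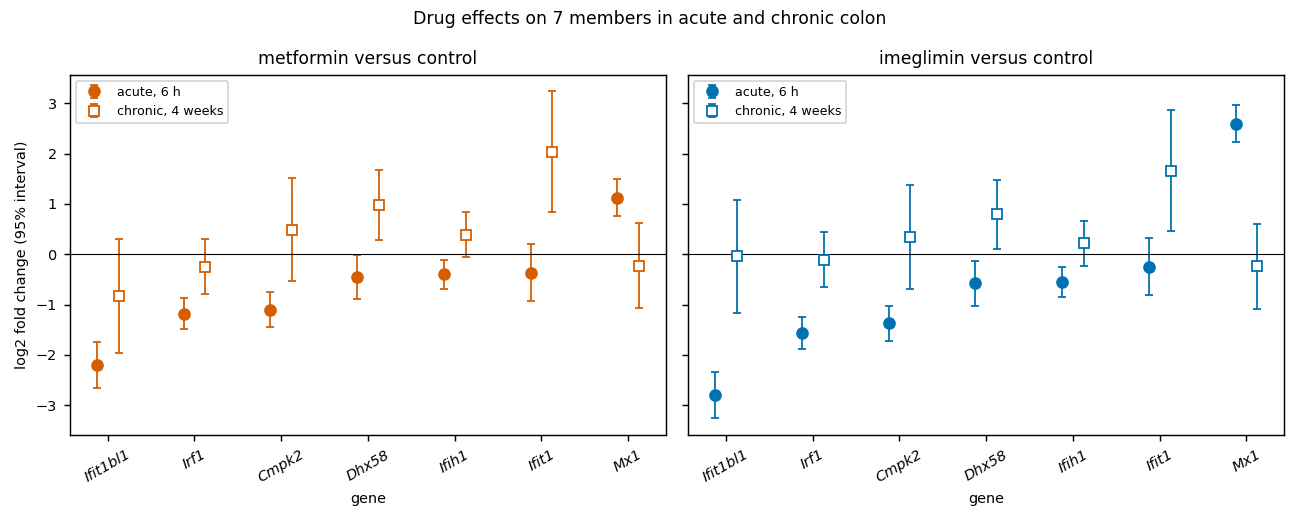
Log2 fold change with its 95% interval of 7 members in colon after a single dose (filled circles) and after 4 weeks of drinking water (open squares), for metformin (left) and imeglimin (right). Ifit1bl1, Irf1 and Cmpk2 lie below 0 and Mx1 above 0 after the single dose, and the intervals of all 4 include 0 after 4 weeks with both drugs.

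In the distal small intestine the members leaned upward with metformin, but 1 passed the test. Rsad2, or viperin, which makes a nucleotide that stops viral polymerases, had 17.6, 33.2 and 29.1 CPM with metformin, 17.1, 10.6 and 15.8 CPM with imeglimin, and 8.19, 8.97 and 7.22 CPM in controls. All treated libraries lay above all controls. With metformin it rose by 1.71 ± 0.26 (adjusted p = 0.0378), and 0.592% of all 18233 genes were called higher. Without 1 library this call was lost in 5 of 6 cases, and with the replicate number as a block its adjusted p was 0.158. Plasmacytoid dendritic marker sums were higher than every control with both drugs in this segment, with 0 of 5 genes called. With metformin, stromal and Paneth markers were lower than every control there. Fibroblast markers summed to 325, 317 and 231 CPM with metformin and 702, 373 and 384 CPM in controls, smooth muscle markers to 1142, 1425 and 790 CPM and to 2060, 2097 and 1516 CPM, and Paneth markers to 3974, 3871 and 3434 CPM and to 17660, 6837 and 5432 CPM, with 0 genes of these lists called. Control library 1 stood apart, with the highest Paneth and the lowest enterocyte marker sum (5591 CPM, against 16099 and 18814 CPM in the other controls). Without it the Rsad2 call was lost and the member median with metformin was 0.24, against 0.32 with all libraries. The part of these cells in the member values was not tested.

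Below the threshold, 17 members were higher and 2 lower without overlap with metformin, against 11.6% and 10.5% of all genes, and DESeq2 called 8 higher and 2 lower, against 3.65% and 1.63%. Both Mx genes, both genes of the ISG15 system and all 6 OAS genes had positive values, and all 6 GBP and IRG members had negative ones. Irf7 had 184, 266 and 286 CPM with metformin, 187, 149 and 179 CPM with imeglimin, and 48.8, 117 and 97.0 CPM in controls. Both drug groups lay above every control and overlapped each other, and the log2 values were 1.49 ± 0.30 with metformin (adjusted p = 0.0761) and 0.97 ± 0.30 with imeglimin (adjusted p = 0.355). Isg15 had 18.3, 19.8 and 24.6 CPM with metformin, 14.05, 10.6 and 13.7 CPM with imeglimin, and 7.70, 11.8 and 8.78 CPM in controls (adjusted p = 0.0506 with metformin). Mx1 had 10.8, 7.74 and 9.30 CPM with metformin, 7.72, 5.84 and 9.42 CPM with imeglimin, and 3.94, 6.13 and 6.65 CPM in controls, and its metformin libraries lay above every control (adjusted p = 0.217).

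On the other side, Gbp2 had 22.9, 14.9 and 14.8 CPM with metformin, 29.6, 28.4 and 25.04 CPM with imeglimin, and 31.4, 48.6 and 25.9 CPM in controls. Its metformin libraries lay below every control (-1.01 ± 0.26, adjusted p = 0.132). Sums of T, NK and innate lymphoid markers were also below every control there, at 126, 94.5 and 99.5 CPM with metformin and 133, 234 and 156 CPM in controls, and their part in the Gbp2 value was not tested. Ifit1bl1 had 67.9, 66.6 and 64.8 CPM with metformin, 129, 64.3 and 142 CPM with imeglimin, and 96.7, 153 and 56.2 CPM in controls, with overlap. The imeglimin contrast with controls had 0 calls by edgeR, against 0.0219% of all genes. It had 5 members with an unadjusted p under 0.05, against 10.3% of all genes, and 0 calls by DESeq2, against 1.5%. Its smallest p were those of Irf7, Rsad2 (0.84, adjusted p = 0.359) and Irf9 (0.32, adjusted p = 0.41). Irf9 had 43.2, 45.4 and 42.2 CPM with metformin, 49.3, 44.8 and 42.3 CPM with imeglimin, and 32.6, 41.4 and 35.4 CPM in controls, and both drug groups lay above every control. Imeglimin against metformin also had 0 calls by edgeR, against 0.0494% of all genes, while 10 had an unadjusted p under 0.05, against 8.03%, and DESeq2 called 1, against 1.22%. Usp18 (-1.21, adjusted p = 0.326), Isg15 (-0.71, adjusted p = 0.425) and Rsad2 (-0.88, adjusted p = 0.441) led it. Usp18 had 12.5, 14.2 and 16.8 CPM with metformin, 6.73, 5.02 and 7.04 CPM with imeglimin, and 4.67, 8.69 and 4.03 CPM in controls. B cell marker sums in this segment were 523, 9.19 and 11.6 CPM with metformin, 15.4, 1106 and 305 CPM with imeglimin, and 26.7, 18.6 and 397 CPM in controls, and their part in the spread was not tested.

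In the proximal small intestine 2 members fell with metformin, and the GBP and IRG GTPases were the group that moved most. Zbp1 and Gbp2 were called lower, against 2.46% of all 17295 genes, and 0 members were called higher, against 1.65%. Gbp2 had 9.23, 7.90 and 7.01 CPM with metformin, 30.4, 15.1 and 14.9 CPM with imeglimin, and 16.2, 26.7 and 15.2 CPM in controls. Zbp1, a sensor of Z-form nucleic acid that can start necroptosis, had 22.3, 17.5 and 16.4 CPM with metformin, 58.7, 34.9 and 21.9 CPM with imeglimin, and 44.3, 49.4 and 37.3 CPM in controls. Both were lower than every control in each metformin library, by 1.27 ± 0.29 (adjusted p = 0.0365) and by 1.22 ± 0.28 (adjusted p = 0.036) on the log2 scale.

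All 6 GBP and IRG members were lower without overlap with metformin, with a median of -1.19, against 13.5% of all genes lower without overlap. Igtp had 32.6, 35.5 and 21.1 CPM with metformin, 205, 80.9 and 45.3 CPM with imeglimin, and 66.2, 153 and 79.6 CPM in controls. Iigp1 had 5.56, 7.38 and 4.49 CPM with metformin, 23.3, 8.93 and 7.27 CPM with imeglimin, and 14.8, 18.9 and 12.7 CPM in controls. Neither was called (adjusted p = 0.0645 for Igtp and 0.0583 for Iigp1). Igtp shares 162 exon bases with Irgm2 on the same strand in GENCODE M21, so its reads may be split. The summed level of the 6 genes was 93.3, 91.6 and 75.0 CPM with metformin, 405, 176 and 119 CPM with imeglimin, and 157, 314 and 176 CPM in controls.

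The Gbp2 call was lost on leaving out any 1 library other than control library 3 and the Zbp1 call on leaving out any 1 of the 6, with adjusted p up to 0.135. Markers of several immune and stromal cell types were also lower in the metformin group. Macrophage marker sums were 110, 113 and 115 CPM with metformin and 179, 170 and 169 CPM in controls, with 5 of 9 genes called lower. Sums of T, NK and innate lymphoid markers were 132, 169 and 126 CPM with metformin and 207, 230 and 193 CPM in controls, with 3 of 9 called lower. Also lower with metformin were 6 of 6 Paneth, 6 of 7 smooth muscle and 4 of 7 fibroblast markers. With imeglimin, where neither Gbp2 nor Zbp1 was called, macrophage and fibroblast marker sums also lay below every control. There 2 of 9 macrophage and 2 of 7 fibroblast markers were called lower. Sums of T, NK and innate lymphoid, Paneth and smooth muscle markers overlapped the controls with imeglimin. Endothelial marker sums overlapped the controls with metformin, with 0 of 7 genes called. With imeglimin they lay below every control, with 2 of 7 genes called lower. The part of these cells in the fall of Gbp2 and Zbp1 was not tested.

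The other members printed for every table were not called in this segment. Isg15 had 18.6, 15.96 and 26.2 CPM with metformin, 27.4, 20.9 and 12.7 CPM with imeglimin, and 19.6, 33.6 and 16.8 CPM in controls. Irf7 had 141, 101 and 148 CPM with metformin, 134, 127 and 92.1 CPM with imeglimin, and 109, 134 and 119 CPM in controls. Both overlapped. Mx1 had 8.99, 5.64 and 6.06 CPM with metformin, 8.88, 7.43 and 9.24 CPM with imeglimin, and 4.99, 9.43 and 12.7 CPM in controls. Ifit1bl1 had 41.4, 33.2 and 41.8 CPM with metformin, 77.6, 53.8 and 28.8 CPM with imeglimin, and 57.8, 76.2 and 42.4 CPM in controls. The metformin libraries of Ifit1bl1 lay just below the lowest control, without a call (adjusted p = 0.276).

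With imeglimin 0 members were called in the proximal small intestine by edgeR, against 1.16% of all genes. At an unadjusted p under 0.05 there were 3, against 17.1%, and DESeq2 called 1, against 4.74%. Oasl1 had 68.2, 57.1 and 68.2 CPM with metformin, 60.4, 53.8 and 41.9 CPM with imeglimin, and 70.3, 77.7 and 68.4 CPM in controls, lower than every control with imeglimin (-0.47 ± 0.12, adjusted p = 0.0876). Rsad2 had 10.3, 8.44 and 14.4 CPM with metformin, 8.31, 9.29 and 4.90 CPM with imeglimin, and 10.2, 21.5 and 8.50 CPM in controls (-0.84 with imeglimin, adjusted p = 0.239), and its groups overlapped. Ddx58 had 60.3, 54.5 and 60.3 CPM with metformin, 58.0, 56.8 and 46.96 CPM with imeglimin, and 66.9, 75.1 and 55.6 CPM in controls (-0.29 with imeglimin, adjusted p = 0.219). In the direct comparison 0 members were called by edgeR, against 1.09% of all genes, while 11 had an unadjusted p under 0.05, against 17%, and DESeq2 called 2, against 4.74%. Gbp2 was higher with imeglimin than with metformin by 1.32 (95% interval 0.69 to 1.96, adjusted p = 0.056), Igtp by 1.89 (adjusted p = 0.0861) and Zbp1 by 1.04 (adjusted p = 0.0957), none of them past the threshold.

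In the middle small intestine no member was called with either drug. The counts by edgeR were 0 with metformin, against 0.34% of all 17940 genes, 0 with imeglimin, against 0.0279%, and 0 between the drugs, against 0%. At an unadjusted p under 0.05 the counts were 3, 2 and 13 in the same order, against 10.9%, 18% and 13.2% of all genes, and by DESeq2 they were 1, 2 and 4, against 2.66%, 5.27% and 1.75%. Usp18 had 5.95, 6.94 and 7.55 CPM with metformin, 21.7, 13.2 and 15.1 CPM with imeglimin, and 6.85, 9.85 and 11.7 CPM in controls. It was highest in every imeglimin library (0.82 against controls, adjusted p = 0.142, and 1.29 against metformin, adjusted p = 0.179). Ifit1bl1 had 24.4, 40.7 and 27.9 CPM with metformin, 80.9, 58.5 and 61.2 CPM with imeglimin, and 59.5, 54.2 and 42.1 CPM in controls. Its metformin libraries lay below every control (-0.74, adjusted p = 0.204) and below every imeglimin library (1.11 for imeglimin against metformin, adjusted p = 0.179). Ifit1 had 17.2, 32.9 and 24.9 CPM with metformin, 48.7, 39.4 and 32.8 CPM with imeglimin, and 22.1, 28.6 and 26.1 CPM in controls (0.65 with imeglimin, adjusted p = 0.182).

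Ifi35, an interferon-induced leucine zipper protein, had 64.8, 67.3 and 52.0 CPM with metformin, 93.4, 73.0 and 88.0 CPM with imeglimin, and 67.4, 80.4 and 81.9 CPM in controls (-0.32 with metformin, adjusted p = 0.392). Its metformin libraries lay below every control.

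The other values printed for this segment overlapped between each drug and the controls. Oas3 had 35.2, 34.9 and 34.7 CPM with metformin, 62.9, 52.7 and 47.2 CPM with imeglimin, and 35.2, 57.9 and 47.1 CPM in controls (-0.42 with metformin, adjusted p = 0.382). Mx1 had 6.73, 7.73 and 6.77 CPM with metformin, 7.86, 6.32 and 5.87 CPM with imeglimin, and 6.12, 9.83 and 13.4 CPM in controls (-0.55 with imeglimin, adjusted p = 0.294). Both had 1 low control, and every imeglimin library of Oas3 lay above every metformin library. Isg15 had 9.31, 16.6 and 12.2 CPM with metformin, 27.6, 16.7 and 14.3 CPM with imeglimin, and 9.75, 17.8 and 16.7 CPM in controls. Irf7 had 84.2, 120 and 110 CPM with metformin, 123, 106 and 130 CPM with imeglimin, and 89.8, 99.4 and 110 CPM in controls. Gbp2 had 12.8, 20.6 and 10.4 CPM with metformin, 31.6, 22.8 and 20.2 CPM with imeglimin, and 21.4, 22.3 and 14.2 CPM in controls. The same mixture of drug and control libraries held for all 3.

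Whether a drug effect was equal along the gut was tested over the 4 chronic segments together. The labels do not say whether segments came from the same mice, and the test takes all libraries as independent. With metformin 2 members differed between segments, against 4.03% of 20053 genes, and with imeglimin 0 did by edgeR, against 2.96%, with 2 at an unadjusted p under 0.05, against 16.8%. DESeq2 was not run on this test. Irf7 had metformin effects of 0.13, 0.08, 1.503 and 1.16 from the proximal to the middle and distal segments and the colon (adjusted p = 0.0106). Usp18 had effects of -0.58, -0.47, 1.34 and 1.34 in the same order (adjusted p = 0.0426). The estimates of both were largest in the distal segment and the colon, but the test shows only that the 4 effects were unequal. Within single segments Usp18 was called in neither (adjusted p = 0.099 distal and 0.114 colon). Irf7 was called in the colon and not in the distal segment (adjusted p = 0.0761). Both calls of the test across segments were lost when replicate 1, 2 or 3 was left out of every group, with adjusted p up to 0.389. For Gbp2, low with metformin in the proximal segment, the effects were -1.24, -0.39, -0.99 and -0.50 and their difference was not called (adjusted p = 0.896).

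Genes of the pathway outside the list were followed through 151 further symbols. In acute colon 125 were tested, of which 20 fell and 11 rose with metformin and 36 fell and 14 rose with imeglimin. Over all genes 8.37% fell and 11.3% rose with metformin, and 15.1% fell and 18.1% rose with imeglimin. Other interferon-induced genes mostly fell when called, with 9 lower and 1 higher of 46 with metformin and 18 lower and 1 higher with imeglimin. Ddx60, a helicase-like gene of the response, averaged 18.7 CPM in metformin colons, 8.23 CPM in imeglimin colons and 38.6 CPM in controls, and fell by 2.23 with imeglimin (adjusted p = 0.000147). Gvin1, a very large interferon-induced GTPase, averaged 25.5, 18.1 and 65.3 CPM in metformin, imeglimin and control colons, and fell by 1.36 with metformin (adjusted p = 0.000138) and by 1.85 with imeglimin (adjusted p = 1.5e-05). Of the 14 other GBP and IRG genes 3 fell with metformin and 8 with imeglimin.

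The receptors and signalling genes did not move as one group. The receptor subunit Ifngr1 rose (0.41 with metformin, adjusted p = 0.0126, and 0.46 with imeglimin, adjusted p = 0.00404), while Ifngr2 fell by 0.46 with metformin (adjusted p = 0.0112) and by 0.35 with imeglimin (adjusted p = 0.0235). The kinases Jak2 and Tyk2 fell with both drugs, with values of -0.30 to -0.61 and adjusted p between 0.00139 and 0.0346. Of 8 inhibitors of interferon signalling 4 rose with metformin and 3 with imeglimin, and none fell. Over all genes 11.3% rose with metformin and 18.1% with imeglimin. Socs1, an inhibitor of the JAK kinases, averaged 3.34, 5.50 and 1.73 CPM in metformin, imeglimin and control colons (adjusted p = 0.0289 with metformin and 0.00096 with imeglimin). Socs3, whose product blocks signalling of the interleukin 6 family, averaged 64.3, 58.1 and 18.9 CPM (adjusted p = 0.0191 and 0.0172 in the same order). Mavs, the mitochondrial adaptor of RIG-I and MDA5, rose by 0.52 ± 0.09 with metformin (adjusted p = 0.00324) and by 0.83 ± 0.09 with imeglimin (adjusted p = 0.00014), while of the sensors that feed it Ddx58 fell with both drugs and Ifih1 with imeglimin. Between the drugs, Ifnlr1, the specific subunit of the type III receptor, was higher with imeglimin (0.71, adjusted p = 0.0449) and Parp12 was lower (-0.69, adjusted p = 0.0433).

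In chronic colon 15 of 127 tested pathway genes rose and 9 fell with metformin, and 11 rose and 5 fell with imeglimin. Over all genes 11.6% rose and 8.04% fell with metformin, and 7.97% rose and 5.07% fell with imeglimin, so the pathway genes were called about as often as other genes. Mavs rose again (0.87 with metformin, adjusted p = 0.000313, and 0.44 with imeglimin, adjusted p = 0.0126). The class I antigen genes H2-D1 and B2m rose with both drugs, H2-D1 by 0.67 with metformin (adjusted p = 0.00167) and 0.49 with imeglimin (adjusted p = 0.0128). Ifi27, a mitochondrial interferon-induced protein, rose by 0.76 with metformin (adjusted p = 0.000673). Gvin1 fell with both drugs, by 0.97 with metformin (adjusted p = 0.00158) and by 0.82 with imeglimin (adjusted p = 0.00707), and Il18, a cytokine that drives Ifng in lymphocytes, fell by 0.61 and by 0.50. In the proximal small intestine 8 pathway genes fell and 3 rose with metformin, of 125 tested, against 2.46% and 1.65% of all genes. The lower ones included Gbp5 (-1.22, adjusted p = 0.0236), Gbp2b (-0.97, adjusted p = 0.0169) and Ido1, a tryptophan-degrading enzyme induced by type II interferon (-1.19, adjusted p = 0.0206). In the distal segment Mavs was the 1 pathway gene called with metformin (0.79, adjusted p = 0.0466), against 0.592% of all genes called higher. In the middle segment 0 of 126 were called with either drug by edgeR, against 0.34% of all genes with metformin and 0.0279% with imeglimin.

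In the single-cell assay of colon the members were read in 25637 cells with at least 500 UMIs, 12918 from the matrix named Met, 4724 from Ime and 7995 from CT. The GEO label of this sample lists control, metformin and imeglimin together, so only the name of each matrix ties it to a treatment, and no treatment was tested with them. There is 1 matrix of each name, and the median depth was 5497, 1355 and 2341 UMIs a cell. No full barcode was shared between matrices (0 of the 24-base barcodes). Clustering gave 32 clusters, which were grouped into classes by markers and called after the type they resemble, or after their leading genes where markers were too few. The members and the listed pathway genes were left out of the clustering. The levels by class are a description, and the intervals cover counting error only.

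The members were highest in absorptive colonocyte-like cells, in the pool and in each matrix. Over the pool, in which 1907 of 2450 such cells come from Met, the summed level was 6553 CPM in absorptive colonocyte-like cells, 4533 CPM in an unnamed class led by St8sia5 and Igsf9, and 3764 CPM in goblet-like cells led by Ido1 and Slpi, against 1046 CPM in stem cell-like epithelium, 966 CPM in cycling epithelium-like cells and 483 CPM in pancreatic acinar-like cells. Among classes with at least 50 cells in a matrix, the order behind colonocyte-like cells was not the same in each. In Met the next were the class led by St8sia5 at 4809 CPM and the goblet-like class led by Ido1 at 4233 CPM, in Ime the goblet-like class led by Vill and Ang4 at 3445 CPM and lymphatic endothelium-like cells at 3374 CPM, and in CT endothelium-like cells at 2986 CPM and macrophage-like cells at 2331 CPM. In Ime 24 glia-like cells had 5072 CPM from 205 UMIs. Ido1, which leads the goblet-like class named for it, is itself an interferon-induced gene. Ifit1bl2, an IFIT gene outside the lists, leads the colonocyte-like cluster and was not among the genes left out of the clustering. Irf7 stood at 1513 CPM in colonocyte-like cells (95% Poisson interval 1502 to 1524), which held 49.4% of its UMIs, and tuft-like cells came second at 615 CPM. Fibroblast-like cells had 226 CPM of Irf7 and smooth muscle-like cells 202 CPM. Ifit1bl1 had 935 CPM in colonocyte-like cells and 137 CPM in fibroblast-like cells, whose median depths were 13047 and 1965 UMIs a cell. Free RNA was not estimated, so a low level in a class may not be expression. Isg15 had 546 CPM in colonocyte-like cells and 128 CPM in fibroblast-like cells. Irf1 had 503 CPM in colonocyte-like cells and was second in T cell-like cells at 281 CPM.

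Other members had other leading classes. Iigp1 was highest in endothelium-like cells, at 123 CPM (104 to 143), with 48.1 CPM in lymphatic endothelium-like cells. Gbp2 (106 CPM), Gbp3 (59.3 CPM) and Gbp7 (53.9 CPM) were also highest in endothelium-like cells, with the next class close behind, at 102, 52.3 and 53.4 CPM. Igtp was highest in T cell-like cells (43.0 CPM) and Trim30a, a regulator of Toll-like receptor signalling, in macrophage-like cells (77.1 CPM). Bst2, or tetherin, which holds budding viruses at the cell surface, and Isg20 were highest in plasma cell-like cells, at 593 and 98.9 CPM. Oas2 (237 CPM), Oas3 (132 CPM) and Zbp1 (192 CPM) were highest in the goblet-like class led by Vill and Ang4.

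**Figure D5:**
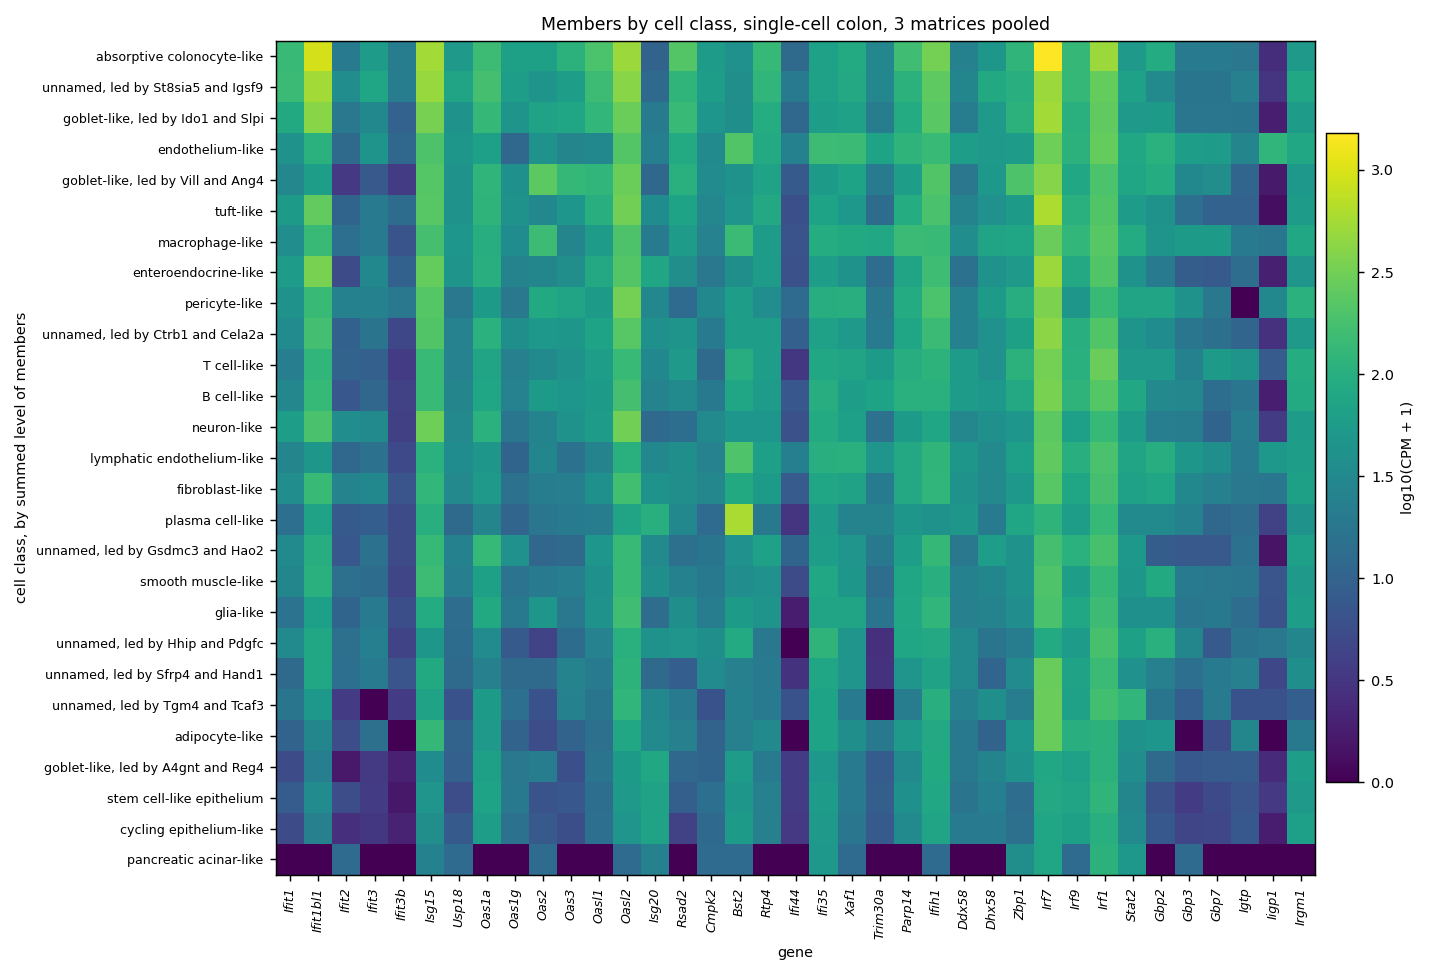
Level of the 37 members with a probe (log10 of CPM + 1, colour) in the cell classes with at least 50 cells of the 3 matrices pooled, with classes ordered by the summed level of the members. The colonocyte-like row is highest in the sum at 6553 CPM, driven by genes such as Irf7 and Ifit1bl1, while Iigp1 is bright in the endothelium-like row.

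The matrices differed in level and in make-up. Colonocyte-like cells numbered 1907 in Met, 149 in Ime and 394 in CT, and the summed level of the members in them was 6824, 5428 and 3782 CPM. In stem cell-like epithelium the sums were 1162, 1018 and 677 CPM in the same order. Irf7 in colonocyte-like cells was at 1634 CPM in Met (1622 to 1647), 615 CPM in Ime (571 to 661) and 402 CPM in CT (382 to 423). Isg15 was at 592, 142 and 142 CPM there, and Ifit1bl1 at 921, 1263 and 989 CPM. Iigp1 in endothelium-like cells was at 114, 244 and 153 CPM, from 125, 9 and 23 UMIs. With 1 matrix of each name, the difference between matrices has no replicate check, and depth and the number of colonocyte-like cells differ along with it.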

How the data were processed

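The authors deposited whole-number gene counts for 45 bulk libraries in 5 tables and UMI counts of a probe-based single-cell assay in 3 matrices. Per the labels' protocols the bulk libraries came from a stranded poly(A) kit, and no source used here says whether counting used the strand. Per the submitters' processing notes FastQC, Trimmomatic, HISAT2, StringTie and Cell Ranger and the builds mm10 and GRCm39 were used, with no roles stated. Among the members, 12 share exon bases with another gene in GENCODE M21, 7 of them on the opposite strand (Dhx58, Gbp2, Ifi35, Irf1, Irf7, Oasl1 and Usp18), and Ifit3 with Ifit3b, Oas1a with Oas1g and Ifit1bl1 with a paralog may share reads.

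Each table was fitted once over its 9 libraries with edgeR 4.0.16 (R 4.3.3, TMM scaling, filterByExpr, quasi-likelihood F test), and p-values were adjusted by Benjamini-Hochberg over all genes tested. The 4 differences between effects were fitted over the tables concerned. DESeq2 1.42.0, RLE scaling, no filter, the replicate block, fits of the 2 groups alone and leaving out libraries were the alternatives. The procedure was tested on simulated data. The labels give a batch tag equal to the replicate number. The main fits did not pair libraries of one number, and only the replicate block did. Across pairs that share a number, the correlation of what is left after subtracting group means averaged -0.0056 in acute colon, 0.0055, -0.100 and -0.132 in proximal, middle and distal small intestine and 0.0687 in chronic colon.

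Cells with at least 500 UMIs were clustered with scanpy 1.11.5 and leidenalg 0.10.2 (2000 variable genes, 30 principal components, 15 neighbours, resolution 1). The automatic threshold of Scrublet marked 0 cells, so doublets were not removed. Levels by class are summed CPM with exact Poisson intervals. Intervals and zero-count limits (3 counts) cover counting error only.

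The members and all gene lists were chosen with earlier results of these data known. Values in every library were printed for Isg15, Irf7, Mx1, Ifit1bl1 and Gbp2, for up to 6 called members in each direction by size without overlap, for up to 2 called members of a role group by p, and for the 3 smallest p where no member was called. Up to 2 pathway genes of a list were named by p, besides the receptors and ligands; 1 further gene that the rule names is not reported here. Ifit1 and Dhx58 in acute colon were named after their values were seen.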

Additional observations from a re-analysis of the deposited data

Results flagged for a closer look

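For 2 members the metformin effect differed between the 4 chronic segments by edgeR's test of the difference. The adjusted p was 0.0106 for Irf7 and 0.0426 for Usp18, with log2 effects of 1.503 and 1.34 in the distal small intestine, against 0.13 and -0.58 in the proximal one.

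For 2 members the metformin effect in acute colon differed from that in chronic colon. The difference, acute minus chronic on the log2 scale, was -2.44 for Ifit1 (adjusted p = 0.036) and -1.47 for Dhx58 (adjusted p = 0.0354).

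For 6 members the imeglimin effect differed in the same way. The difference was 2.81 for Mx1, -2.78 for Ifit1bl1, -1.74 for Cmpk2, -1.48 for Irf1, -1.40 for Dhx58 and -0.80 for Ifih1, with adjusted p by edgeR between 0.000779 and 0.0446.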

How the results depend on the processing

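For single members, 331 of 438 values on leaving out libraries and 336 of 369 under the other settings kept their direction and their side of the threshold, 104 and 22 lost a call, 3 and 11 gained one, and 0 reversed. With DESeq2 the members called were 2 for imeglimin against metformin in acute colon, 4 with metformin, 1 with imeglimin and 2 between the drugs in the proximal segment, 1, 2 and 4 in the middle segment, 10 with metformin and 1 between the drugs in the distal segment, and 7 with metformin and 3 with imeglimin in chronic colon. With the replicate block the counts were 0 with metformin in the distal segment, 13 with metformin and 3 with imeglimin in chronic colon, and 14 for the acute minus chronic effect of each drug, and no other count moved by over 1.5 times. With only the 2 groups compared, 5 members were called with metformin and 1 between the drugs in the proximal segment, 0 with metformin in the distal segment and 10 with metformin in chronic colon. With no filter, 0 were called with imeglimin in chronic colon and 1 for metformin across segments.

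On leaving out 1 library, calls ranged from 8 to 12 with metformin, 16 to 24 with imeglimin and 0 to 1 between the drugs in acute colon, and from 1 to 4, 0 to 2 and 0 to 4 in chronic colon. They ranged from 0 to 1 with metformin in the proximal and distal segments and between the drugs in the proximal one, and were 0 in the other small intestinal comparisons and across segments. For acute minus chronic they ranged from 0 to 1 with metformin and 1 to 5 with imeglimin. For imeglimin against control in the proximal segment the member median ran from -0.324 to 0.0937, above 0 without control library 2 (0.0937) and without imeglimin library 3 (0.0742). For imeglimin against metformin it ran from -0.0627, without imeglimin library 1, to 0.311 in the proximal segment, and from -0.157 to 0.0251 in the distal one, above 0 without imeglimin library 2 (0.0251) and without metformin library 1 (0.00957). For imeglimin against control in chronic colon it ran from -0.325, without imeglimin library 3, to 0.511. The cause was not tested. In single cells, 32 of 37 members kept their leading class at resolution 2 and 35 of 37 at 1000 UMIs or more. With 3 libraries a group, a miss of the threshold does not show that values were equal.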
